A study of Mus musculus with 12 samples.

Results

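The outer kidney cortex of Tg26 mice was compared with that of wild-type (WT) mice when both genotypes had received INT-747. The comparison took the 3 libraries labelled Tg26 with INT-747 and the 3 labelled WT with INT-747, 6 of the 12 libraries of the series, and covered every gene of the count table. Tg26 mice carry as a transgene an HIV-1 provirus that lacks gag and pol and is driven by its own promoter, and are a model of HIV-associated nephropathy. INT-747, or obeticholic acid, is a bile acid derivative that activates the nuclear receptor FXR. The other 6 libraries came from 3 Tg26 and 3 WT mice that had received nicotinamide riboside (NR), a precursor of NAD. All mice were 12 weeks old. The labels give no dose, route, length of treatment, sex, strain background or hour of tissue collection, and no group without an agent was analysed here, so every difference below is one between genotypes under an agent. The deposited table lists mouse genes, and the transgene itself was not analysed here, so its transcripts do not serve as a check of the genotype labels.

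In HIV-associated nephropathy, viral proteins act in podocytes, the filtering cells of the glomerulus, and in tubular epithelium, and the kidney shows collapsing glomeruli, dilated tubules, inflammation and scarring. FXR, encoded by Nr1h4, controls bile acid transport and lipid metabolism in liver, intestine and the proximal tubule. Molecular chaperones hold and refold proteins: those of the cytosol are induced by the heat shock factor HSF1, and those of the endoplasmic reticulum (ER) by the unfolded protein response through ATF6 and XBP1. Many kidney genes also follow the circadian clock, in which ARNTL and its partners NPAS2 and CLOCK drive Dbp, the Per genes and Nr1d1, whose products act back on the drivers.

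Total counts were 22286343 to 27255336 in the WT and 23957530 to 24752120 in the Tg26 libraries, and transcripts of the mitochondrial genome took 8.09% to 9.37% of them. Markers of cortex were abundant in all 6 mice: the 22 proximal tubule genes summed to between 48709 and 60602 CPM, the read counts scaled to library size with TMM factors. Cyp11b1, Cyp11b2 and Cyp21a1, which define adrenal cortex, had 0 counts in all 6 mice. In a principal component analysis of the 2000 most variable genes, the first component held 41.2% of the variance, with WT mice at -26.4, -26.2 and -13.6 and Tg26 mice at 21.2, 42.3 and 2.64. Tg26 replicate 2 stood apart from the other 5 mice in many genes of injury, macrophages and complement, described below. A clock score, the mean log2 CPM of 10 genes of the Dbp phase minus that of 4 genes of the Arntl phase, was 0.663, -0.192 and 0.111 in the WT mice and 3.17, 2.62 and 2.45 in the Tg26 mice. The groups did not overlap in this score, so under INT-747 genotype and clock phase cannot be told apart. All 6 mice had the pattern of males in Xist and 4 Y-linked genes, whereas Tg26 replicate 3 under NR had that of a female. For the INT-747 contrast that library entered only the shared estimate of spread, but it is 1 of the 3 Tg26 mice in every value given under NR and in the interaction.

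Of 15708 genes tested with edgeR's quasi-likelihood test across all 12 libraries, 42 differed between Tg26 and WT mice under INT-747 at a Benjamini-Hochberg adjusted p under 0.05, which is 0.267% of the genes. Of these, 18 were higher in Tg26 mice (0.115%) and 24 lower (0.153%), and 10 differed at least 2-fold. At an unadjusted p under 0.05, 1174 genes were higher (7.47%) and 1229 lower (7.82%), and the median log2 fold change of all genes was 0.01. The values of the 3 WT and 3 Tg26 mice did not overlap for any of the 42 called genes, against 26% of all genes tested. The genes were called on the difference between these same mice, which favours such a separation, so it is no further support for the calls. Of the called genes, 38 code for proteins. The call count moved with the tool and with the libraries fitted. A fit of only the 6 INT-747 libraries called 601 genes, all 42 among them, and DESeq2 on all 12 called 525, again with all 42 among them. Leaving out a library of the comparison left few calls: 3, 4 and 10 without WT replicate 1, 2 or 3, and 0, 0 and 6 without Tg26 replicate 1, 2 or 3. At an unadjusted p under 0.05 the fits without Tg26 replicate 1 and replicate 2 still held 1639 and 2307 genes, and the other tools were not run without them. Leaving out an NR library gave 77 calls without WT replicate 1, 20 without WT replicate 3 and 195 without Tg26 replicate 3. With the clock score as a covariate 2 genes were called.

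**Figure D1:**
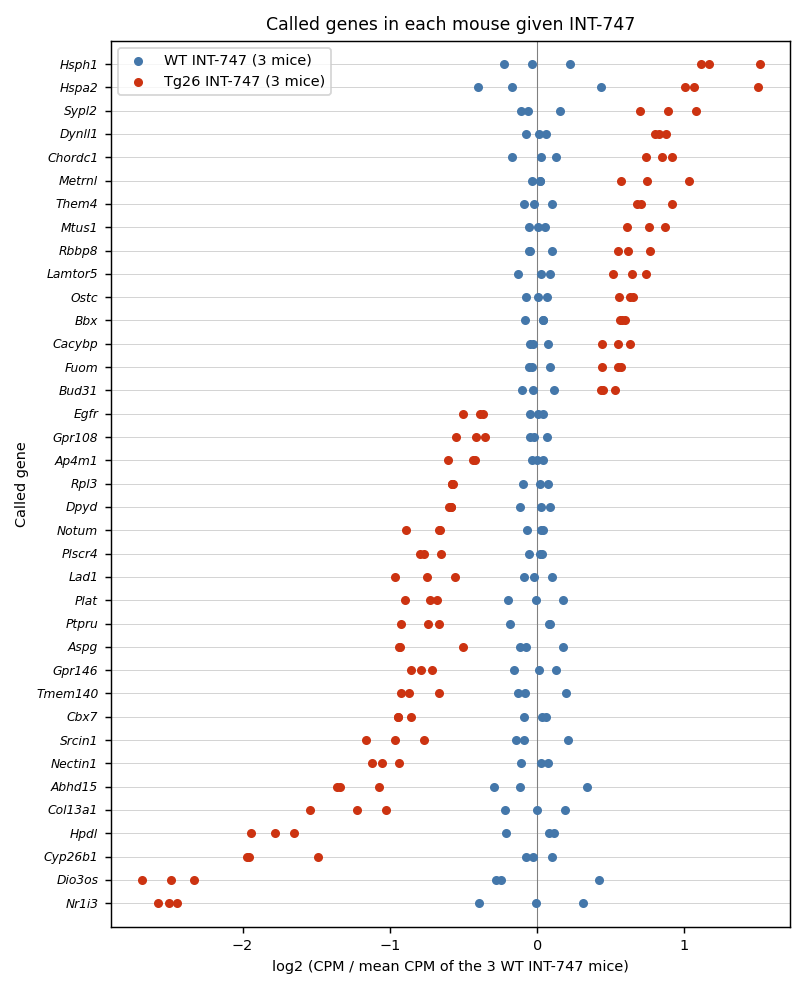
Each of 37 called genes is a row, each point a mouse given INT-747 (3 WT, blue; 3 Tg26, red), and the x axis is log2 of CPM over the mean CPM of the 3 WT mice. Red and blue points do not overlap in any row, from Nr1i3 (log2 fold change -2.50) to Hsph1 (1.27). The genes were called on these same mice, which favours such a separation.

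The genes with the largest falls included a nuclear receptor of xenobiotic metabolism and the enzyme that clears retinoic acid. Nr1i3 encodes the constitutive androstane receptor, which drives drug-metabolising enzymes. Its level was 5.02, 4.02 and 3.07 CPM in the WT mice and 0.716, 0.679 and 0.74 CPM in the Tg26 mice, low in every sample and lowest in all 3 Tg26 mice. Mean CPM was 5.68-fold lower in Tg26 mice (log2 fold change -2.50, SE 0.32, adjusted p = 0.0173). Cyp26b1, whose product breaks down retinoic acid, stood at 29.0, 32.7 and 29.9 CPM in the WT mice and 7.79, 7.86 and 10.9 CPM in the Tg26 mice. The WT mice lay close together and far above every Tg26 mouse, which had a 3.45-fold lower mean (log2 fold change -1.79, SE 0.20, adjusted p = 0.00891). Dio3os, a long noncoding RNA transcribed beside the deiodinase gene Dio3 that inactivates thyroid hormone, stood at 23.4, 37.9 and 23.9 CPM in the WT mice and 4.42, 5.07 and 5.66 CPM in the Tg26 mice. It was 5.62-fold lower in Tg26 mice (log2 fold change -2.49, SE 0.28, adjusted p = 0.00891), and it was 1 of the 2 genes called when the fit held the clock score (log2 fold change -1.88, adjusted p = 0.0344). Dio3 itself had 0.493, 1.64 and 1.21 CPM in the WT mice and 0.421, 0.559 and 0.436 CPM in the Tg26 mice and was not called (log2 fold change -1.24, SE 0.46, adjusted p = 0.254).

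Hpdl, which encodes a mitochondrial dioxygenase-like protein, fell from 3.86, 3.76 and 3.07 CPM in WT mice to 0.926, 1.04 and 1.13 CPM in Tg26 mice (log2 fold change -1.78, SE 0.27, adjusted p = 0.0279). Abhd15, an adipocyte protein that restrains lipolysis, had 11.6, 8.45 and 7.49 CPM in the WT mice and 3.62, 4.35 and 3.57 CPM in the Tg26 mice (log2 fold change -1.25, SE 0.20, adjusted p = 0.0344). Of the 4 tested adipocyte markers, 2 were also lower in every Tg26 mouse than in every WT mouse, against 13.5% of all genes. Lipe, hormone-sensitive lipase, had 46.1, 53.0 and 35.8 CPM in the WT mice and 18.6, 22.3 and 28.2 CPM in the Tg26 mice, Plin4, a lipid droplet protein, had 5.11, 4.80 and 3.94 CPM in the WT mice and 1.6, 2.48 and 2.48 CPM in the Tg26 mice, and the defining marker Adipoq had 1, 6 and 5 counts in the WT mice and 0 in each Tg26 mouse. The 4 tested of 10 adipocyte genes, Adipoq not among them, had a median of -0.93, with 3 negative values and 1 positive (0.04). Of these 0 were called, and their part in the Abhd15 result was not tested. Col13a1, a transmembrane collagen, had 8.25, 9.41 and 7.10 CPM in the WT mice and 3.54, 2.83 and 4.05 CPM in the Tg26 mice (log2 fold change -1.25, SE 0.21, adjusted p = 0.0391). In Hpdl, Abhd15 and Col13a1 the highest Tg26 mouse stayed below the lowest WT mouse. Nectin1, a cell adhesion molecule of adherens junctions, fell from 96.8, 100.3 and 88.2 CPM to 43.8, 49.5 and 45.9 CPM, a 2.05-fold lower mean (log2 fold change -1.04, SE 0.18, adjusted p = 0.0415). Cbx7, a chromatin reader of Polycomb repressive complex 1, had 35.8, 36.5 and 32.9 CPM in the WT mice and 18.2, 18.2 and 19.3 CPM in the Tg26 mice. No Tg26 mouse came near the WT range (log2 fold change -0.92, SE 0.10, adjusted p = 0.00891), and the call held in 19 of the 22 alternative settings, as did those of Cyp26b1 and Dio3os.

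The other called falls were each under 2-fold. Egfr, the epidermal growth factor receptor of tubular cells, stood at 86.7, 85.0 and 81.9 CPM in the WT mice and 59.7, 64.6 and 65.4 CPM in the Tg26 mice (log2 fold change -0.42, SE 0.07, adjusted p = 0.0415). Plat, tissue plasminogen activator, had 60.9, 78.7 and 69.4 CPM in the WT mice and 37.4, 43.5 and 42.1 CPM in the Tg26 mice (log2 fold change -0.77, SE 0.12, adjusted p = 0.0279). Notum, an enzyme that removes the lipid of Wnt proteins and so inactivates them, had 50.8, 50.2 and 47.0 CPM in the WT mice and 31.3, 26.5 and 31.0 CPM in the Tg26 mice (log2 fold change -0.74, SE 0.11, adjusted p = 0.0251). In all 3 genes every Tg26 mouse lay below every WT mouse. Also lower were the receptor phosphatase Ptpru (-0.77 on the log2 scale), the anchoring filament protein Lad1 (-0.75), the Src-binding adaptor Srcin1 (-0.96), the phospholipid scramblase family member Plscr4 (-0.74), the orphan receptor Gpr146 (-0.78) and Tmem140 (-0.82). Metabolic enzymes among the falls were Aspg, an asparaginase (-0.78), and Dpyd, which starts pyrimidine breakdown (-0.59). The adaptor subunit Ap4m1 (-0.48) and Gpr108 (-0.44) showed small falls, and the predicted gene Gm11827 and the ribosomal Rpl3 were also lower.

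Among the called genes other than predicted ones, a chaperone had the largest rise. Hsph1 encodes HSP110, the exchange factor that releases substrates from HSP70, and its level was 71.0, 84.7 and 62.1 CPM in the WT mice and 207, 163 and 157 CPM in the Tg26 mice. Every Tg26 mouse lay well above the highest WT mouse, and the mean was 2.42-fold higher (log2 fold change 1.27, SE 0.21, adjusted p = 0.0415). Hspa2, an HSP70 family member best known from spermatogenesis, was a low-level transcript at 3.18, 2.72 and 4.85 CPM in the WT mice and 10.1, 7.51 and 7.19 CPM in the Tg26 mice (log2 fold change 1.21, SE 0.21, adjusted p = 0.045). Chordc1, an HSP90 co-chaperone, had 27.2, 33.5 and 31.1 CPM in the WT mice and 57.7, 55.2 and 51.0 CPM in the Tg26 mice (log2 fold change 0.83, SE 0.12, adjusted p = 0.0251), and Cacybp, a binding partner of calcyclin and of HSP90 complexes, had 25.5, 25.9 and 27.7 CPM in the WT mice and 38.5, 35.8 and 40.9 CPM in the Tg26 mice (log2 fold change 0.54, SE 0.09, adjusted p = 0.0415). In all 4 chaperone genes the 3 Tg26 mice exceeded the 3 WT mice.

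Genes outside the chaperone lists made up most of the others that rose. Sypl2, a membrane protein of the synaptophysin family, had 57.8, 48.0 and 49.8 CPM in the WT mice and 109.7, 84.3 and 95.8 CPM in the Tg26 mice (log2 fold change 0.90, SE 0.15, adjusted p = 0.0391), and Dynll1, a dynein light chain, had 29.0, 30.7 and 31.7 CPM in the WT mice and 56.0, 53.1 and 54.0 CPM in the Tg26 mice (log2 fold change 0.84, SE 0.15, adjusted p = 0.045). Mtus1, a microtubule-associated tumour suppressor, rose from 71.9, 66.7 and 69.6 CPM to 127, 106 and 118 CPM (log2 fold change 0.75, SE 0.11, adjusted p = 0.0251). The Tg26 mice lay above the WT mice in each of these 3. Also higher were Metrnl, a secreted protein (0.79 on the log2 scale), Them4, a mitochondrial thioesterase (0.77), Rbbp8, which starts the resection of DNA breaks (0.65), Lamtor5, of the lysosomal Ragulator complex (0.64), and Ostc, a subunit of the ER enzyme that attaches N-glycans (0.61). Smaller rises were those of Bbx (0.58), the fucose mutarotase Fuom (0.52) and the splicing factor Bud31 (0.47). The noncoding predicted gene Gm26850 had the largest, from 0.314, 0.521 and 0.563 CPM to 2.74, 1.88 and 2.79 CPM (log2 fold change 2.39, SE 0.40, adjusted p = 0.0415).

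Some of these values depend on how reads were assigned. The span of 13 of the 42 called genes overlapped that of another tested gene, on the opposite strand for 12 of them. The libraries were strand-specific, but the strand setting used in counting is not given in the sources used here. Cbx7 overlaps the antiviral deaminase gene Apobec3, whose log2 fold change was -1.78 (adjusted p = 0.0706), and Gm26850 overlaps the acetyl-CoA transporter gene Slc33a1 (1.01). Rpl3, a protein of the large ribosomal subunit, was lower in Tg26 mice, at 277, 288 and 255 CPM in the WT mice and 183, 184 and 184 CPM in the Tg26 mice (log2 fold change -0.58, SE 0.09, adjusted p = 0.0279), while its processed pseudogene Rpl3-ps1 on the X chromosome was higher, at 86.9, 97.1 and 87.9 CPM in the WT mice and 156, 156 and 161 CPM in the Tg26 mice (log2 fold change 0.80, SE 0.09, adjusted p = 0.00891). The 2 sequences can share reads, so both values are uncertain. In the NR mice Rpl3 stood at 184, 212 and 185 CPM (WT) and 204, 193 and 216 CPM (Tg26), so that the WT mice under INT-747 lay above the other 9 mice.

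The same contrast in the mice given NR shares no library with that under INT-747. Under NR, 0 of the 15708 genes were called by edgeR (0%), with 3244 at an unadjusted p under 0.05 and 967 called by DESeq2. The count was 340 with a term for sex and 333 without the Tg26 mouse of female pattern. Of the 24 genes that fell under INT-747, 22 also had negative log2 fold changes under NR, with a median of -0.31 against -0.78. Of the 18 that rose, 5 had positive values under NR and 13 negative ones, with medians of -0.08 under NR and 0.78 under INT-747. For 36 of the 42 genes, all 3 Tg26 mice under INT-747 lay beyond the values of the other 9 mice, against 8.05% of all genes tested. These genes were chosen for the distance between Tg26 and WT mice under INT-747, which favours a high count. The same choice favours medians nearer to 0 under NR than under INT-747. For 7 genes all 3 WT mice under INT-747 lay beyond the other 9, 4 genes being in both counts. The share of all genes with WT mice so placed was not computed, so the counts of 36 and 7 cannot be compared. The difference between the genotype effects was tested as an interaction, and 0 genes were called (0%). The smallest adjusted p of that test with edgeR was 0.123, 2428 genes had an unadjusted p under 0.05, and DESeq2 called 247. No gene can therefore be given as different in Tg26 mice under one agent alone.

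**Figure D2:**
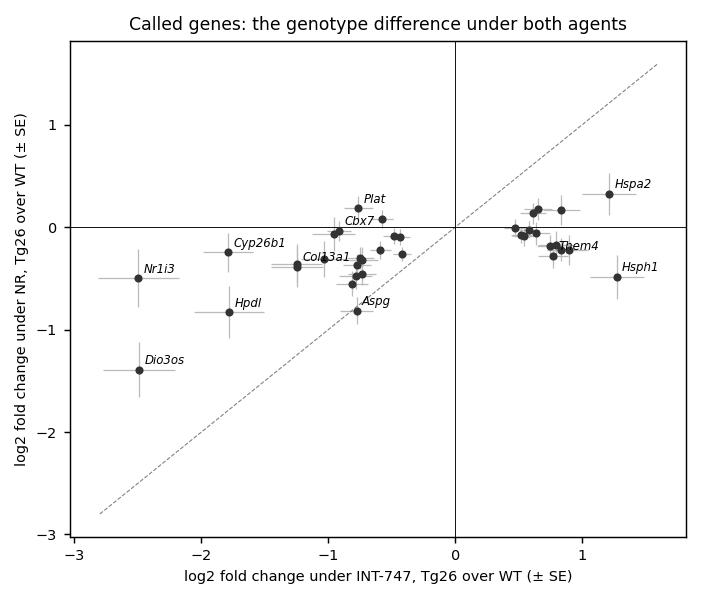
Each point is one of 37 called genes, with its log2 fold change of Tg26 over WT under INT-747 on the x axis and under NR on the y axis, 3 mice a group, bars showing SE. The dashed line marks equal values, and all points but Aspg (-0.78 and -0.81) lie nearer to 0 on the NR axis. The genes were chosen by their difference under INT-747, which favours smaller values under NR.

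The 10 genes of smallest p in the interaction included 7 that were called under INT-747, and those named are given as values. Them4 differed by 1.05 on the log2 scale between the agents (adjusted p = 0.123), Chordc1 by 1.05 (0.123), Mtus1 by 0.93 (0.123), Hsph1 by 1.76 (0.159) and Cbx7 by -0.88 (0.123). Farsb, a subunit of phenylalanyl-tRNA synthetase, was not called under INT-747 (50.4, 50.2 and 61.3 CPM in the WT mice and 69.1, 67.3 and 85.8 CPM in the Tg26 mice). Under NR it ran the other way, at 68.0, 72.9 and 89.9 CPM in WT mice and 43.6, 49.4 and 43.1 CPM in Tg26 mice, an interaction of 1.22 (adjusted p = 0.123). Josd1, a deubiquitinase, had an interaction of 0.75 (0.123).

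The cytosolic and mitochondrial chaperones were then described as a list of 26 genes, all tested. Of these, 4 were called higher (Hsph1, Hspa2, Chordc1 and Cacybp), against 0.115% of all genes, and 0 were called lower. This list, like the others of this report, was chosen with earlier results of these data known. Its shares beside those of all genes are therefore a description and no independent support. The log2 fold change was positive in 23 of the 26, with a median of 0.53 against 0.01 for all genes, and 16 had all Tg26 mice above all WT mice, against 12.5% of all genes. Just beyond the threshold, Ahsa1, which activates the HSP90 ATPase, had 44.0, 53.0 and 52.6 CPM in the WT mice and 82.6, 71.8 and 74.5 CPM in the Tg26 mice (log2 fold change 0.61, SE 0.11, adjusted p = 0.0514). Stip1, the adaptor that joins HSP70 to HSP90, had 49.1, 58.2 and 57.5 CPM in the WT mice and 93.1, 81.7 and 93.5 CPM in the Tg26 mice (log2 fold change 0.70, SE 0.13, adjusted p = 0.0517). Neither gene showed an overlap between the groups.

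Among the main HSP90 and HSP70 proteins the same direction appeared with more spread. Hsp90aa1, the inducible cytosolic HSP90, stood at 283, 330.5 and 409 CPM in the WT mice and 531, 486 and 592 CPM in the Tg26 mice (log2 fold change 0.65, SE 0.16, adjusted p = 0.13). Dnaja1, a J-domain partner of HSP70, had 222, 208 and 272 CPM in the WT mice and 468, 415 and 432 CPM in the Tg26 mice (log2 fold change 0.90, SE 0.23, adjusted p = 0.141). Hspa8, the constitutive HSP70, ran from 1074 to 1731 CPM in Tg26 mice and from 836 to 924 CPM in WT mice, without overlap (log2 fold change 0.65, SE 0.34, adjusted p = 0.39). The stress-induced pair Hspa1a and Hspa1b, near-identical copies whose reads may be split between them, was high in Tg26 replicate 1 alone, at 12.7 and 23.6 CPM, against at most 3.71 and 8.22 CPM in every other mouse given INT-747. Hspe1 and Hspd1, the mitochondrial chaperonin pair, had log2 fold changes of 0.49 and 0.27, and neither was called (adjusted p = 0.109 and 0.363). The 3 members with negative values were Bag3 (-0.20), St13 (-0.04) and Dnajb4 (-0.02), and Hsf1 itself had 0.16 (adjusted p = 0.435).

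Promoter sequences of this list were searched for the heat shock element, the sequence that HSF1 is known to bind, in windows from 250 bases before to 50 bases after the annotated start (RefSeq, build GRCm38.p6). The letters searched on both strands were GAA, any 2 bases, TTC, any 2 bases and GAA. They were present in 198 of 32851 windows (0.603%), or by gene in 179 of 27025 (0.662%). Among the 21 chaperone genes with a window they were present for 4, namely Hspd1, Hspe1, Hsph1 and Chordc1. Hsph1 and Chordc1 are shown because they are the called genes with a match, and Hspe1 because its stretch is shared with Hspd1 on the other strand. Capitals mark the matched bases, each sequence is written 5′ to 3′ on the strand of its gene, and overlapping matches are joined.
Hsph1, chr5:149636287-149636308, minus strand: gctgcagaTTCTGGAAAGTTCt
Chordc1, chr9:18292260-18292288, plus strand: ccgGAACGTTCGGGAAAATTCCTGAAgca
Hspe1, chr1:55088044-55088091, plus strand: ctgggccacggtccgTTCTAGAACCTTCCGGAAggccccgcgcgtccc
Chordc1 held 3 overlapping matches from 4 bases before the start onward, and Hspe1 held 2. The match in Hsph1 lies after the annotated start, and called Hspa2 and Cacybp had no match in this window. A match is a description of letters, not of binding.

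ER chaperones and folding factors formed a list of 22 genes, all tested, of which 0 were called by edgeR. Of these, 16 had an unadjusted p under 0.05 (15.3% of all genes) and 11 were called by DESeq2 (3.34% of all genes). Of the 22, 21 log2 fold changes were positive, with a median of 0.46, and in 19 genes all Tg26 mice lay above all WT mice, against 12.5% of all genes. Hspa5, or BiP, the ER member of the HSP70 family, stood at 336, 342 and 366 CPM in the WT mice and 729, 718 and 716 CPM in the Tg26 mice. The 3 Tg26 mice lay close together, and the mean was 2.07-fold higher (log2 fold change 1.05, SE 0.30, adjusted p = 0.169). Manf, a secreted ER stress protein, had 18.2, 18.2 and 17.8 CPM in the WT mice and 61.2, 55.7 and 43.7 CPM in the Tg26 mice (log2 fold change 1.57, SE 0.42, adjusted p = 0.162). Creld2, an ER-resident isomerase, had 19.7, 21.3 and 20.5 CPM in the WT mice and 46.4, 46.4 and 36.8 CPM in the Tg26 mice (log2 fold change 1.08, SE 0.22, adjusted p = 0.0825). In these 3 genes the lowest Tg26 mouse lay far above the highest WT mouse.

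Other members came from several steps of ER quality control. Among folding enzymes, Pdia4 had 75.0, 75.2 and 95.7 CPM in the WT mice and 126, 136 and 153 CPM in the Tg26 mice (log2 fold change 0.75, SE 0.16, adjusted p = 0.0871), and Hyou1, an ER exchange factor, had 81.0, 84.7 and 83.5 CPM in the WT mice and 178, 175 and 148 CPM in the Tg26 mice (log2 fold change 1.01, SE 0.27, adjusted p = 0.163). Sel1l and Syvn1, which together export misfolded proteins for degradation, had log2 fold changes of 0.66 and 0.42 (adjusted p = 0.116 and 0.124). Xbp1, the transcription factor of this response, stood at 83.8, 77.9 and 75.9 CPM in the WT mice and 137, 132 and 119 CPM in the Tg26 mice (log2 fold change 0.70, SE 0.20, adjusted p = 0.171). The 3 genes at the low end were Herpud1 (0.08), P4hb (0.08) and the sensor kinase Ern1 (-0.09), whose groups overlapped. Fitted to the 6 INT-747 libraries alone, 13 of the 22 genes were called higher against 4.05% of all genes called in that fit in either direction, and 11 of the 26 cytosolic and mitochondrial chaperones. The 18 tested genes of the ATF4 branch of stress signalling did not share the direction, with 9 above and 9 below 0 and a median of 0.00. Among them Sesn2, a stress-induced regulator of mTORC1, was at 158, 213 and 159.6 CPM in the WT mice and 50.9, 53.3 and 117 CPM in the Tg26 mice (log2 fold change -1.26, SE 0.32, adjusted p = 0.15), lower in every Tg26 mouse.

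**Figure D3:**
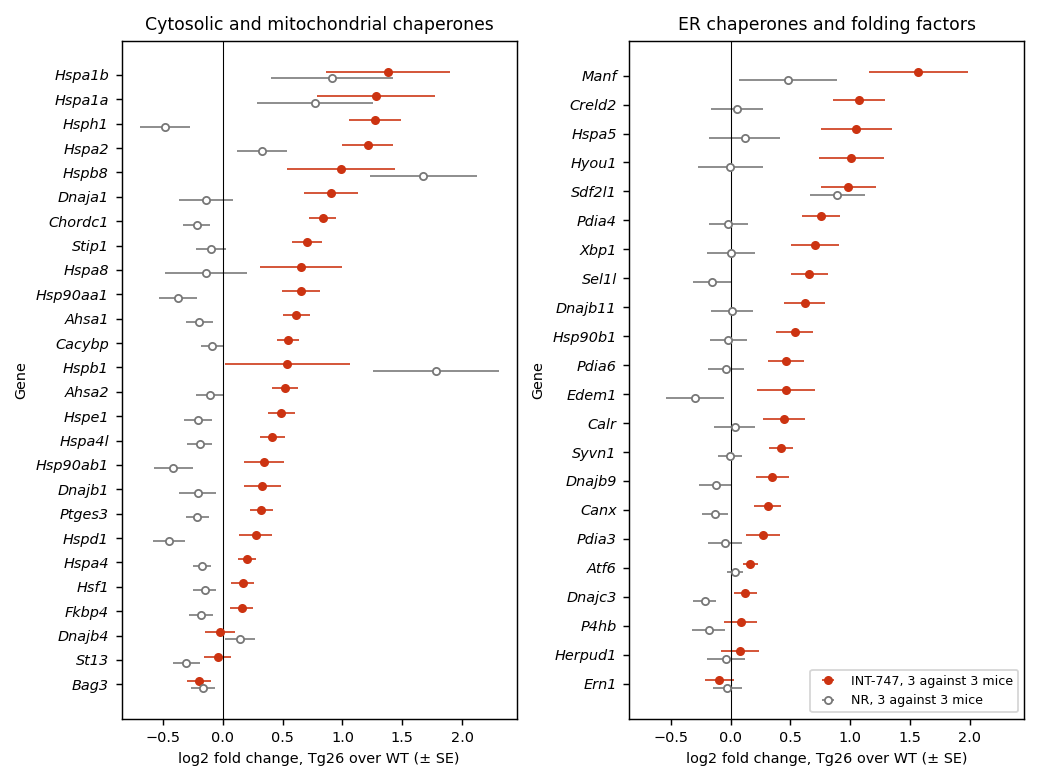
Log2 fold changes of Tg26 over WT with SE for 26 cytosolic and mitochondrial chaperones (left) and 22 ER chaperones and folding factors (right), under INT-747 (filled) and NR (open), 3 mice a group. Filled points lie right of 0 for 23 and 21 genes, and open points for 6 and 8.

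The ER stress element, to which ATF6 with NF-Y is known to bind, was searched in the same promoter windows, on both strands, as CCAAT, any 9 bases and CCACG. It was present in 39 of 32851 windows (0.119%), and 8 of these 39 belonged to the 19 ER genes of the list with a window, namely Hspa5, Hsp90b1, Calr, Canx, Pdia6, Dnajc3, Creld2 and Syvn1. The 6 sequences below are shown because they carry the element in genes of different size of difference, from Creld2 (1.08) to Canx (0.31). Capitals mark the matched bases. Creld2 carries the element in reverse, and Hsp90b1, or GRP94, carries 1 copy in each direction.
Hspa5, chr2:34772010-34772058, plus strand: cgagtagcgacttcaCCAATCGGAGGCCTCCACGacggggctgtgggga
Creld2, chr15:88819505-88819553, plus strand: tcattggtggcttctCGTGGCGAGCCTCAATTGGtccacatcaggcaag
Hsp90b1, chr10:86705518-86705671, minus strand: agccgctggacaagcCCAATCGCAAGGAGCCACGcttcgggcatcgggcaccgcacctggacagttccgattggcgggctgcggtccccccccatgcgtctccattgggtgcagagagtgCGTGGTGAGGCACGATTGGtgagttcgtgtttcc
Pdia6, chr12:17266476-17266524, plus strand: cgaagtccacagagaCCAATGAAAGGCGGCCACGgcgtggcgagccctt
Syvn1, chr19:6046522-6046560, plus strand: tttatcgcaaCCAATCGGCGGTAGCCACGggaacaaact
Canx, chr11:50325785-50325833, minus strand: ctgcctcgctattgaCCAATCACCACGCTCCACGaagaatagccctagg
Since 21 of the 22 genes of the list had positive log2 fold changes, with or without the element, the direction does not separate the 8 genes that carry it from the others. Among the 8, Dnajc3 had the lowest value (0.12, adjusted p = 0.546).

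Genes of the Arntl phase of the clock differed widely between the groups under INT-747, with a large spread over all 12 mice. Npas2, the partner of ARNTL, stood at 8.29, 24.3 and 17.8 CPM in the WT mice and 1.39, 1.80 and 1.57 CPM in the Tg26 mice, and Arntl at 17.9, 28.4 and 22.1 CPM in the WT mice and 3.03, 5.07 and 6.32 CPM in the Tg26 mice. In both genes the highest Tg26 mouse was far below the lowest WT mouse. Neither was called (log2 fold change -3.40, SE 1.03, adjusted p = 0.199; log2 fold change -2.25, SE 0.84, adjusted p = 0.269). Dbp, an output of the clock, had 10.5, 6.10 and 8.83 CPM in the WT mice and 52.8, 31.0 and 34.6 CPM in the Tg26 mice, the reverse pattern (log2 fold change 2.22, SE 0.88, adjusted p = 0.283). Ciart, a repressor of the clock, had 5.11, 4.43 and 4.07 CPM in the WT mice and 26.9, 10.2 and 10.5 CPM in the Tg26 mice (log2 fold change 1.81, SE 0.70, adjusted p = 0.28), and Nr1d2 had 71.5, 53.1 and 51.4 CPM in the WT mice and 125, 98.8 and 112 CPM in the Tg26 mice (log2 fold change 0.93, SE 0.34, adjusted p = 0.256). In all, 9 of 10 genes of the Dbp phase had positive values (median 0.46) and 4 of 4 of the Arntl phase negative ones (median -1.96). By edgeR 0 of these 14 were called, with 6 at an unadjusted p under 0.05 (42.9%, against 15.3% of all genes) and 1 called by DESeq2 (7.14%, against 3.34%).

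The E-box CACGTG, to which ARNTL with its partners is known to bind, was present in 2349 of the 32851 promoter windows (7.15%). Counted by gene, 2187 of 27025 carried the E-box (8.09%). It was found for 4 of the 9 Dbp-phase genes with a window (Ciart, Bhlhe41, Per1 and Tef) and for 0 of the 4 Arntl-phase genes. Here too a match is a description of letters, not of binding. Ciart is shown for its 3 copies, in capitals.
Ciart, chr3:95882255-95882356, minus strand: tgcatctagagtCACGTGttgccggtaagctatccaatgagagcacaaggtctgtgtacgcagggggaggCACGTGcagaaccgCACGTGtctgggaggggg

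The chaperone levels of the NR mice can be set beside their clock scores. Under NR, where the score was 3.25, 0.156 and -0.608 in WT mice and 2.87, 3.57 and 0.576 in Tg26 mice, Hspa5 stood at 534, 311 and 265 CPM and 387, 575 and 242 CPM in the same mice. The mice with the highest score of each genotype thus also had the highest Hspa5. Hsph1 stood at 117, 86.6 and 88 CPM and 58.6, 94.3 and 55.7 CPM in the NR mice, all below the 157 to 207 CPM of the Tg26 mice under INT-747. It too was highest in the NR mouse of highest score in each genotype. Tg26 replicate 1 under NR, however, with a score of 2.87, had 58.6 CPM of Hsph1, below every WT mouse under NR. With the clock score as a covariate, the median log2 fold change under INT-747 was 0.24 for the ER list, with 20 of 22 genes positive, and 0.29 for the cytosolic list, with 22 of 26 positive, and 0 genes of either list were called. The part of the clock in these differences cannot be told apart from genotype within the INT-747 mice. The cold-inducible genes Cirbp and Rbm3, whose products stabilise transcripts at low body temperature, were at 83.7, 70.6 and 86.3 and 126, 101 and 121 CPM in WT mice and 56.3, 57.5 and 67.4 and 86.2, 94.1 and 104 CPM in Tg26 mice, and neither was called (adjusted p = 0.191 and 0.243).

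**Figure D4:**
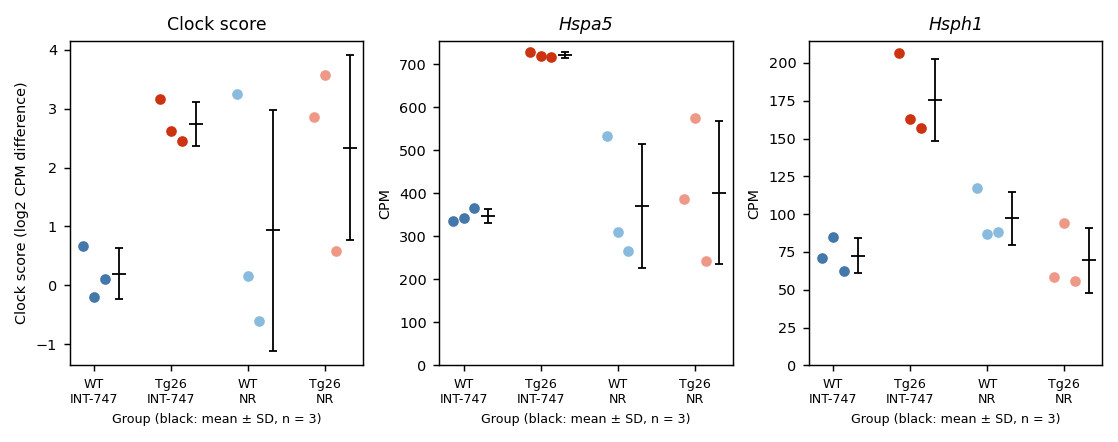
The clock score and the CPM of Hspa5 and Hsph1 in each of the 12 mice, by group, with the mean and SD of 3 mice in black. Under INT-747 the Tg26 mice lie above the WT mice in all 3 panels, while under NR the genotypes overlap.

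Genes of bile acid handling and FXR, the target of INT-747, were counted next. Of 23 genes listed, 16 were tested, 8 with higher and 8 with lower values in Tg26 mice (median 0.02). Of the 16, 0 were called by edgeR, with 4 at an unadjusted p under 0.05 (15.3% of all genes) and 3 called by DESeq2 (3.34% of all genes). Nr1h4, the gene of FXR, stood at 227, 229.9 and 212 CPM in the WT mice and 293, 272 and 315 CPM in the Tg26 mice. Every WT mouse lay below every Tg26 mouse (log2 fold change 0.39, SE 0.16, adjusted p = 0.283). Slc51a, one half-transporter of the bile acid exporter OST, had 86.5, 79.4 and 115 CPM in the WT mice and 167, 151 and 173 CPM in the Tg26 mice (log2 fold change 0.81, SE 0.24, adjusted p = 0.175), whereas its partner Slc51b, a known FXR target, had 15.9, 13.6 and 16.2 CPM in the WT mice and 13.3, 12.9 and 15.98 CPM in the Tg26 mice (log2 fold change -0.12, SE 0.18, adjusted p = 0.781), with overlapping groups. Cyp27a1, a sterol hydroxylase of bile acid synthesis, had 74.5, 85.0 and 69.9 CPM in the WT mice and 58.8, 55.8 and 55.4 CPM in the Tg26 mice (log2 fold change -0.43, SE 0.11, adjusted p = 0.14). Nr0b2, the repressor SHP and a classical FXR target of liver, was under 1 CPM in all 6 mice. Cyp7a1 and Fgf15, which FXR regulates in liver and intestine, had 0 counts in all 6 mice.

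Genes of fatty acid oxidation had mostly lower values in Tg26 mice. Of 30 genes, all tested, 29 had negative log2 fold changes, with a median of -0.32, and 14 had all Tg26 mice below all WT mice against 13.5% of all genes. By edgeR 0 were called, with 10 at an unadjusted p under 0.05 (15.3% of all genes) and 4 called by DESeq2 (3.34% of all genes). Acaa1b, a peroxisomal thiolase, had 443, 558 and 247 CPM in the WT mice and 143, 125 and 221 CPM in the Tg26 mice (log2 fold change -1.35, SE 0.36, adjusted p = 0.157). Cyp4a14, an omega-hydroxylase and target of the receptor PPAR-alpha, varied widely within each group. It ran from 78.2 to 722 CPM in WT mice and from 5.14 to 43.2 CPM in Tg26 mice (log2 fold change -4.10, SE 1.63, adjusted p = 0.283). Under NR the median of the list was -0.43, with 28 of 30 values negative, and in the fit that held the clock score it was -0.16 under INT-747, with 21 of 30 negative.

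The called Cyp26b1 and Nr1i3 belong to lists of retinoid and drug metabolism, whose other members were not called. The retinoid list had 9 of 15 negative values (median -0.23) and 1 call, and the xenobiotic list 15 of 23 (median -0.23) and 1 call, both against 0.153% of all genes called lower. In the xenobiotic list all Tg26 mice lay below all WT mice for 6 genes (13.5% of all genes) and above them for 4 (12.5%). Among those higher was the abundant Cyp2e1, at 2150, 2318 and 2298 CPM in the WT mice and 2699, 2427 and 2817 CPM in the Tg26 mice. Lrat, which esterifies retinol for storage, had 2.47, 4.17 and 2.21 CPM in the WT mice and 0.589, 0.719 and 1.13 CPM in the Tg26 mice (log2 fold change -1.86, SE 0.45, adjusted p = 0.124). Dhrs3, which reduces retinal, had 148, 211 and 122 CPM in the WT mice and 91.8, 77.7 and 103 CPM in the Tg26 mice (log2 fold change -0.82, SE 0.22, adjusted p = 0.163). Aldh1a2, which makes retinoic acid, ran the other way at 1.08, 0.484 and 1.04 CPM in the WT mice and 3.70, 6.47 and 2.18 CPM in the Tg26 mice (log2 fold change 2.26, SE 0.61, adjusted p = 0.162), without overlap between the groups in any of the 3 genes. Nr1i2, the pregnane X receptor, had 4.66, 6.92 and 4.55 CPM in the WT mice and 1.94, 1.80 and 2.003 CPM in the Tg26 mice (log2 fold change -1.49, SE 0.61, adjusted p = 0.288). Slc22a8, a basolateral organic anion transporter, belongs instead to the proximal tubule list. It had 629, 808 and 556 CPM in the WT mice and 376, 329 and 253 CPM in the Tg26 mice (log2 fold change -1.06, SE 0.26, adjusted p = 0.134).

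Among genes with a mean log2 CPM no lower than 1 and no overlap between the groups, the 10 with the largest difference in each direction were mostly not called. On the lower side, beside Cyp4a14, Npas2, Arntl and the called Dio3os, Bhmt, which remethylates homocysteine, had 18.2, 33.3 and 10.3 CPM in the WT mice and 1.6, 2.48 and 1.65 CPM in the Tg26 mice (log2 fold change -3.43, SE 1.61, adjusted p = 0.353). Cyp2d12, a cytochrome of the drug-metabolising family 2, had 43.0, 93.1 and 33.4 CPM in the WT mice and 8.25, 10.7 and 5.71 CPM in the Tg26 mice (log2 fold change -2.78, SE 0.77, adjusted p = 0.173), and Cdkn1a, the cell cycle inhibitor p21, had 107, 155 and 115 CPM in the WT mice and 17.6, 30.9 and 29.8 CPM in the Tg26 mice (log2 fold change -2.27, SE 0.77, adjusted p = 0.233). Apoc3 (-2.73) and the noncoding Ctcflos (-2.82) were also among the 10. On the higher side, Kif20b, a mitotic kinesin, had 7.40, 4.84 and 9.35 CPM in the WT mice and 35.7, 34.3 and 26.4 CPM in the Tg26 mice (log2 fold change 2.16, SE 0.49, adjusted p = 0.116), and Prok1, a secreted prokineticin, had 4.26, 2.64 and 3.29 CPM in the WT mice and 23.9, 14.3 and 18.1 CPM in the Tg26 mice (log2 fold change 2.47, SE 0.65, adjusted p = 0.16). Mchr1 (2.16), Lipo3 (2.76), the complement gene C7 (2.27), the chemokine Cxcl1 (2.60), Dbp, Havcr1 and Aoc1 followed. The largest value was that of a second gene model named Nnt, at 0, 0.744 and 0.39 CPM in WT mice and 19.96, 17.8 and 13.1 CPM in Tg26 mice. It overlaps the main Nnt model, the mitochondrial transhydrogenase, on the same strand (323, 357 and 289 CPM in the WT mice and 258, 226 and 254 CPM in the Tg26 mice), so that the split of reads between them is uncertain.

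Several markers of tubular injury were highest in 1 Tg26 mouse, while others of the list were lower in Tg26 mice. Havcr1, or KIM-1, the injury marker of the proximal tubule, had 1.48, 1.38 and 1.95 CPM in the WT mice and 4.63, 29.7 and 3.18 CPM in the Tg26 mice (log2 fold change 2.97, SE 1.35, adjusted p = 0.341). Vcam1, an adhesion molecule of injured tubules and endothelium, had 11.4, 9.86 and 12.0 CPM in the WT mice and 14.8, 73.9 and 12.4 CPM in the Tg26 mice (log2 fold change 1.61, SE 0.83, adjusted p = 0.388), and Lcn2, or NGAL, had 0.897, 0.558 and 0.346 CPM in the WT mice and 1.98, 9.38 and 0.523 CPM in the Tg26 mice (log2 fold change 2.73, SE 1.56, adjusted p = 0.434). In each of these genes replicate 2 was the highest Tg26 mouse by a wide margin. Of 20 genes listed and tested, 15 had positive values (median 0.41). By edgeR 0 were called, with 5 at an unadjusted p under 0.05 (15.3% of all genes) and 1 called by DESeq2 (3.34% of all genes). Without Tg26 replicate 2 the median was -0.03, with 10 of 20 positive, and in the fit that held the clock score it was 0.63. Cdkn1a, given above, and the fibrinogen gene Fga belong to the same list, and Fga had 64.4, 110.2 and 46.6 CPM in the WT mice and 22.7, 46.6 and 23.5 CPM in the Tg26 mice (log2 fold change -1.25, SE 0.53, adjusted p = 0.305), not above the WT range in any Tg26 mouse. Krt8 (-0.11) and Gdf15 (-0.56) also had negative values. Sox4, a transcription factor of developing and injured tubules, was highest in replicate 1, at 3.004, 4.80 and 3.38 CPM in the WT mice and 9.51, 6.47 and 6.36 CPM in the Tg26 mice (log2 fold change 0.99, SE 0.25, adjusted p = 0.139).

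Genes of macrophages, complement and matrix were also highest in replicate 2, at the median of each list. In bulk tissue, more cells of a type and more RNA per cell cannot be told apart. Lyz2, lysozyme of macrophages and neutrophils, had 5.47, 11.0 and 8.88 CPM in the WT mice and 30.7, 186 and 9.41 CPM in the Tg26 mice (log2 fold change 3.15, SE 1.36, adjusted p = 0.314). C3, the central complement component, had 11.6, 12.5 and 11.1 CPM in the WT mice and 27.4, 259.7 and 10.7 CPM in the Tg26 mice (log2 fold change 3.08, SE 1.26, adjusted p = 0.293). Tg26 replicate 3 lay within or beside the range of the WT mice in both. All 22 genes of macrophages and antigen presentation had positive values (median 1.005), and 2 had no overlap between the groups against 12.5% of all genes. Relative to the WT mean, the list's median level per mouse was 0.47 log2 units in Tg26 replicate 1, 1.67 in replicate 2 and -0.05 in replicate 3. Without replicate 2 the median fold change was 0.28, with 21 of 22 positive. The 26 fibrosis and matrix genes had a median of 0.53 with all mice and 0.15 without replicate 2, the 16 cytokine and NF-kB genes 0.52 and 0.08 (17 passing the filter without that mouse), and the 13 complement genes 0.58 and -0.03. In the fit that held the clock score the medians were 0.36 for the macrophage list, 0.14 for fibrosis, 0.12 for cytokines and 0.11 for complement. Neutrophil genes were not highest in that mouse: the medians of the 3 tested were 1.32, 1.04 and 0.34 log2 units above the WT mean in Tg26 replicates 1 to 3, and S100a9, a calprotectin subunit, had 0.0448, 0.223 and 0.0866 CPM in the WT mice and 2.15, 0.759 and 0.436 CPM in the Tg26 mice (log2 fold change 3.14, SE 0.84, adjusted p = 0.152). The neutrophil genes Ngp and Camp had 0 counts in all 6 mice. Cxcl1, a chemokine that attracts neutrophils, had 6.01, 3.76 and 5.20 CPM in the WT mice and 41.8, 35.0 and 13.7 CPM in the Tg26 mice (log2 fold change 2.60, SE 1.01, adjusted p = 0.281). The 12 tested T and NK cell genes had a median of 0.60 with all mice, 0.22 without replicate 2 (13 tested) and -0.03 in the fit with the clock score. The 7 tested B and plasma cell genes had 0.65, 0.77 and -0.93. Of the 25 interferon-stimulated genes 19 had positive values (median 0.19), among them Igtp, an immunity-related GTPase, at 9.95, 9.94 and 8.23 CPM in the WT mice and 19.3, 17.1 and 16.9 CPM in the Tg26 mice (log2 fold change 0.92, SE 0.19, adjusted p = 0.0765), without overlap. Over the macrophage, fibrosis, cytokine, complement and interferon lists, 0 of 102 genes were called by edgeR, 11 had an unadjusted p under 0.05 (10.8%, against 15.3% of all genes) and 1 was called by DESeq2 (0.98%, against 3.34%).

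**Figure D5:**
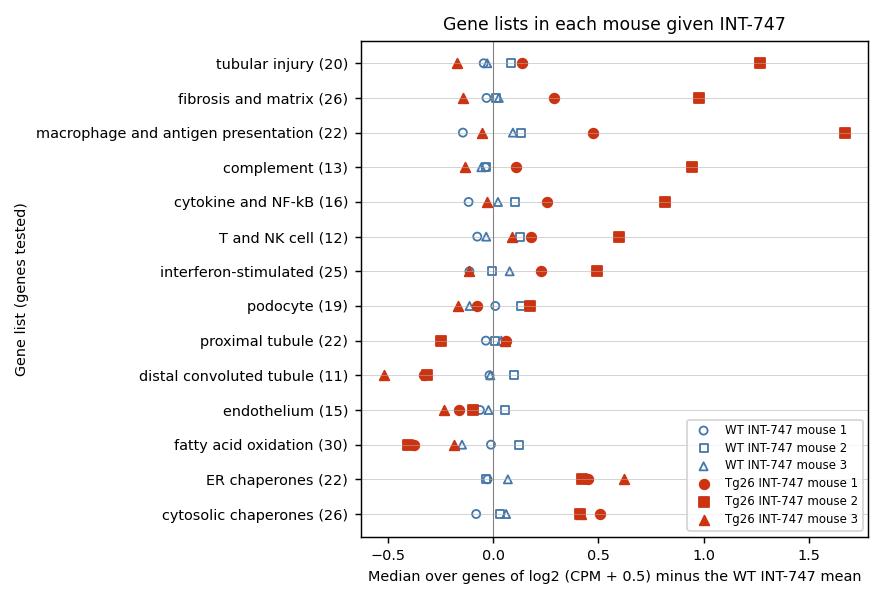
Median over the tested genes of each list of log2 (CPM + 0.5) minus the mean of the 3 WT mice, for each mouse given INT-747 (WT open blue, Tg26 filled red; symbols mark replicates 1 to 3). Tg26 replicate 2 (squares) lies far right for injury, macrophage and complement lists, while for both chaperone lists the 3 Tg26 mice lie together between 0.41 and 0.62.

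The chaperone lists did not follow that mouse. Their median levels relative to the WT mean were 0.45, 0.42 and 0.62 log2 units in Tg26 replicates 1 to 3 for the ER list and 0.51, 0.41 and 0.42 for the cytosolic list. Without replicate 2 the median fold changes were 0.51 and 0.49.

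Podocyte genes showed no common direction. Of 19 genes, all tested, 8 had positive and 11 negative values (median -0.01). By edgeR 0 were called, with 4 at an unadjusted p under 0.05 (15.3% of all genes) and 0 called by DESeq2 (3.34% of all genes). Nphs1, nephrin of the slit diaphragm, stood at 27.8, 30.2 and 24.8 CPM in the WT mice and 21.3, 22.5 and 20.2 CPM in the Tg26 mice (log2 fold change -0.37, SE 0.26, adjusted p = 0.515). Every Tg26 mouse lay below every WT mouse. Wt1, the transcription factor of mature podocytes, had 4.80, 6.36 and 5.11 CPM in the WT mice and 3.75, 3.75 and 3.92 CPM in the Tg26 mice (log2 fold change -0.51, SE 0.26, adjusted p = 0.379), and Foxc2 had 1.97, 1.67 and 2.12 CPM in the WT mice and 1.01, 1.12 and 0.958 CPM in the Tg26 mice (log2 fold change -0.90, SE 0.25, adjusted p = 0.168). Podxl, podocalyxin, overlapped at 193, 202 and 169 CPM in the WT mice and 178, 216 and 164 CPM in the Tg26 mice. Without WT replicate 3 or Tg26 replicate 2 the median of the list was -0.16 or -0.17, and in the fit that held the clock score it was 0.07.

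Segments beyond the proximal tubule had mostly lower values in Tg26 mice, a direction that turned in the fit that held the clock score. In the distal convoluted tubule 10 of 11 genes were negative (median -0.37) and 8 had all Tg26 mice below all WT mice, against 13.5% of all genes. Wnk4, a kinase that controls salt transport there, had 218, 237 and 209 CPM in the WT mice and 152, 171 and 150.0 CPM in the Tg26 mice (log2 fold change -0.49, SE 0.17, adjusted p = 0.221), and Slc12a3, the sodium-chloride cotransporter it controls, had 829.5, 937 and 779.8 CPM in the WT mice and 691, 682 and 585 CPM in the Tg26 mice (log2 fold change -0.38, SE 0.23, adjusted p = 0.448). Parvalbumin, Pvalb, was the exception at 22.4, 26.9 and 26.3 CPM in the WT mice and 43.0, 30.5 and 31.6 CPM in the Tg26 mice (log2 fold change 0.48, SE 0.30, adjusted p = 0.477). Principal cell genes were negative in 9 of 10 (median -0.30), intercalated cell genes in 9 of 10 (-0.20), thick ascending limb genes in 8 of 10 (-0.17) and endothelial genes in 14 of 15 (-0.11). Foxi1, the transcription factor of intercalated cells, had 16.4, 17.4 and 15.03 CPM in the WT mice and 9.39, 11.1 and 8.32 CPM in the Tg26 mice (log2 fold change -0.76, SE 0.24, adjusted p = 0.196). Proximal tubule genes were split, 10 positive and 12 negative (median -0.08). In the fit that held the clock score the medians were positive for distal convoluted tubule (0.14), principal cells (0.12), intercalated cells (0.10) and thick ascending limb (0.14), and negative for endothelium (-0.16) and proximal tubule (-0.21). That fit drew on all 12 libraries, and Tg26 replicate 3 under NR, of female pattern, had a clock score of 0.576. Its summed CPM was the highest of the 12 mice in each list whose median turned positive. For distal convoluted tubule it was 3093, against at most 2269 in any other mouse, and for thick ascending limb 7815 against at most 6176. The fit with the clock score was not run without that mouse, so the part of this mouse in the change of sign was not tested. Over the 6 lists, 0 of 78 genes were called by edgeR, and 11 had an unadjusted p under 0.05 (10 negative and 1 positive), which is 14.1% against 15.3% of all genes. DESeq2 called 1 (1.28%, against 3.34% of all genes).

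The called genes were spread over 16 chromosomes (coordinates of build GRCm38). Around each called gene, the share of tested genes within 2 Mb that had an unadjusted p under 0.05 was 14.3% at the median, against 15.3% of all genes, and ran from 0% to 36.4%. The neighbourhoods of Cbx7 (chr15:79915807-79971119) and Rpl3 (chr15:80077791-80091868) had 28 of 86 (32.6%) and 31 of 88 (35.2%) such genes. These 2 stretches overlap each other, and they also hold Apobec3, Josd1, Mchr1 and the peroxisomal transporter gene Slc25a17 (-0.56, adjusted p = 0.073). The share around Mtus1 on chromosome 8 was 36.4%, from 4 of 11 genes, and that around Hsph1 on chromosome 5 was 32.1%, from 9 of 28. Over whole chromosomes the share was 19.8% on chromosome 15, the highest, and 12.3% on chromosome 17, the lowest of the nuclear chromosomes. The stretch on chromosome 15 was singled out after its values were seen, and no test of it was made.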

How the data were processed

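Stranded TruSeq mRNA libraries were made from outer kidney cortex, per the labels' protocols. The submitters' processing notes name RSEM 1.3.1, STAR 2.7.0f, cutadapt 1.18, bcl2fastq 2.17 and build mm10, with no order or settings. The authors deposited RSEM expected counts per gene, not scaled to depth. Of these, 0 were not whole numbers, and they were used as counts. All 55450 gene IDs were found in GENCODE mouse release 21, which gave the coordinates. Titles name the replicates, and no label states that each is a separate mouse or litter, so p-values measure the spread between these samples.

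Genes were kept with filterByExpr on the 4 groups. Counts were scaled by TMM, and 1 edgeR quasi-likelihood fit (robust, a mean per group, 8 residual degrees of freedom) was made over all 12 libraries. Calls are at a Benjamini-Hochberg adjusted p under 0.05 over 15708 genes. The SE is that of the log2 fold change in that fit. At 3 mice a group an exact permutation test of 1 gene could not give a p under 0.10, so none was used. DESeq2 1.42.0, edgeR 4.0.16 and limma 3.58.1 ran under R 4.3.3.

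The members and gene lists were chosen with earlier results of these data known. Named were all called genes except predicted genes, clones and pseudogenes (named here where a result turns on them), the 10 of largest change in each direction without overlap and with a mean log2 CPM no lower than 1, all tested genes of 8 lists, up to 6 of smallest p from each other list, and the 10 of smallest p in the interaction. Not every gene the rule allows is printed, and the results of some genes are not reported here. Slc33a1, Dio3, Apobec3 and Slc25a17 were added after their values were seen, for their position beside called genes. Alternatives were RLE factors, no filter, 1 CPM in 3 libraries, DESeq2, limma-voom, no robust estimation, a replicate block, a sex term, the clock score as a covariate, only the 6 libraries compared, and leaving out each library.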

Additional observations from a re-analysis of the deposited data

How the results depend on the processing

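The 39 named called genes kept their direction in all 22 alternatives, and the number that stayed called ran from 0 to 39. For the genotype difference under INT-747, 42 calls became 64 with no filter on low counts, 525 with DESeq2, 189 with a sex term, 601 with only the 6 libraries compared, 11 with a replicate block and 2 once the clock score entered the fit, and leaving out single libraries gave 0 to 195. RLE size factors gave 44 and limma-voom 35. Under NR, 0 calls became 6 with no filter, 967 with DESeq2 and 340 with the sex term, and 0 to 785 without single libraries, the most without Tg26 replicate 2. The interaction, with 0 calls, had 247 with DESeq2 and 0 to 174 without single libraries, the most again without Tg26 replicate 2 under NR. The cause of these shifts was not tested. The common biological coefficient of variation was 0.214 in the fit of 12 libraries, 0.171 with the sex term and 0.153 in the 6 libraries compared.

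Same-numbered mice under INT-747 deviated together with correlations of 0.01, 0.12 and 0.10. Tg26 replicates 2 and 3 each correlated best with the WT mouse of the same number, and Tg26 replicate 1 with WT replicate 3 (0.03). These correlations were all low, and the numbers were not taken to pair mice. Whether they do is not settled, and the replicate block, with 11 calls, stands as an alternative only. List medians for injury, matrix, macrophage, cytokine, complement and T and NK cell genes were lower without Tg26 replicate 2, as given beside them. That of B and plasma cell genes was not, and neutrophil genes were highest in Tg26 replicate 1. With 3 mice a group and clock phase aligned with genotype, a gene that missed the threshold is not shown to be equal.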

Other observations

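Other gene groups of the same comparison gave mixed values. Immediate early genes had positive log2 fold changes in 10 of 11 (median 0.54; 0.07 in the fit that held the clock score), and 2 of them had no overlap between the groups, against 12.5% of all genes. Nr4a1, an orphan nuclear receptor induced by many stimuli, stood at 4.12, 6.48 and 4.68 CPM in the WT mice and 24.04, 9.02 and 10.8 CPM in the Tg26 mice (log2 fold change 1.52, SE 0.36, adjusted p = 0.124), and Egr1 had 3.72, 3.498 and 2.165 CPM in the WT mice and 16.3, 9.78 and 3.14 CPM in the Tg26 mice (log2 fold change 1.64, SE 0.54, adjusted p = 0.217). Replicate 1 was the highest Tg26 mouse in both. Cholesterol synthesis genes were positive in 18 of 24 (median 0.17): Hmgcs1, which commits acetyl groups to the pathway, had 523, 469 and 562 CPM in the WT mice and 839, 748 and 886 CPM in the Tg26 mice (log2 fold change 0.67, SE 0.17, adjusted p = 0.141), while Insig1, which restrains it, had 85.4, 88.2 and 57.2 CPM in the WT mice and 41.6, 37.0 and 51.9 CPM in the Tg26 mice (log2 fold change -0.82, SE 0.23, adjusted p = 0.163). Glucocorticoid-responsive genes were negative in 10 of 12 (median -0.17), and the metallothioneins Mt1 and Mt2 were high in WT replicate 2, at 145 and 81.4 CPM, against at most 47.1 and 22.0 CPM in the other 5 mice.

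Genes of NAD metabolism were split, 16 positive and 12 negative (median 0.02). Nmrk1, the kinase that turns nicotinamide riboside into its mononucleotide, had 47.6, 66.9 and 54.3 CPM in the WT mice and 121, 105 and 119 CPM in the Tg26 mice (log2 fold change 1.03, SE 0.25, adjusted p = 0.138), with no overlap between the groups. Nuclear-encoded genes of the respiratory chain had a median of -0.01, and in Tg26 replicate 2 28 of the 36 lay below all WT mice. Cycs, cytochrome c, had 257, 237 and 326 CPM in the WT mice and 363, 343 and 425 CPM in the Tg26 mice (log2 fold change 0.46, SE 0.16, adjusted p = 0.225). Among NRF2 targets, the glutathione synthesis gene Gclc had 139, 155 and 137 CPM in the WT mice and 181, 199 and 247 CPM in the Tg26 mice (log2 fold change 0.54, SE 0.15, adjusted p = 0.169), whereas Nfe2l2, the gene of NRF2, had 93.8, 105 and 75.9 CPM in the WT mice and 56.3, 65.8 and 54.6 CPM in the Tg26 mice (log2 fold change -0.63, SE 0.22, adjusted p = 0.225). Pcna, a replication clamp, was tight at 35.7, 35.6 and 35.3 CPM in the WT mice and 30.4, 30.3 and 30.5 CPM in the Tg26 mice (log2 fold change -0.23, SE 0.07, adjusted p = 0.183). No gene of these 7 lists was called by edgeR, 27 of 152 had an unadjusted p under 0.05 (17.8%, against 15.3% of all genes) and DESeq2 called 8 (5.26%, against 3.34%). Hbb-bs, a globin of red cells, was high in WT replicate 3, at 80.3 CPM against 7.85 to 20.6 CPM in the other mice given INT-747.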
